A study of Homo sapiens with 5 samples.

Results

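The clustered protocadherins were followed by RNA sequencing in HEK293T, a widely used line of human embryonic kidney cells, with and without ascorbic acid (vitamin C). The genes were taken from the count table by symbol (PCDHA, PCDHAC, PCDHB, PCDHGA, PCDHGB or PCDHGC and a number), with at least 20 counts summed over the 5 libraries. Of 53 rows with such a symbol 16 reached that sum, among 28278 gene symbols in all. They were 1 alpha gene (PCDHA10), 6 beta genes (PCDHB2, PCDHB8, PCDHB12, PCDHB13, PCDHB14 and PCDHB15) and 9 gamma genes (PCDHGA1, PCDHGA6, PCDHGA10, PCDHGA11, PCDHGA12, PCDHGB5, PCDHGB7, PCDHGC3 and PCDHGC4). Just inside the minimum, PCDHGA6, PCDHGA10 and PCDHGA12 had 20 counts each, and just outside it PCDHGB2 had 19.

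The 3 control libraries came from untreated cells labelled wild type, and the 2 treated libraries from cells given ascorbic acid, which the labels enter in the genotype field. All cells were HEK293T, seeded for 24 h before treatment. The labels give 24 h of treatment where DNA methylation was to be tested and 36 h where RNA methylation was, with fresh medium every 6 h. They state neither which of these times the sequenced RNA had nor the dose. Nothing states that libraries of a group came from separate cultures. The p-values therefore set the difference between groups only against the spread among these libraries, which may be technical.

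Clustered protocadherins are cadherin-family adhesion proteins of the cell surface, known above all from neurons, where each cell makes its own small choice of them and the proteins bind like to like. The genes lie in 3 neighbouring clusters on the long arm of chromosome 5. In the alpha and gamma clusters each gene has its own promoter and its own large first exon, which encodes the extracellular cadherin repeats, the membrane span and part of the cytoplasmic tail, and this variable exon is spliced to constant exons that all genes of the cluster share. Beta genes have no constant exons. Promoter choice is known to depend on the architectural protein CTCF, on cohesin and on DNA methylation, and the genes named AC and GC (the C-type genes) are known as a more uniformly expressed class in neurons.

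The constant exons were printed because they decide what the counts can measure. In the GENCODE 29 annotation of GRCh38, the first constant exon of the alpha cluster (chr5:140978949-140979007, plus strand) was present in 15 genes and that of the gamma cluster (chr5:141494807-141494865, plus strand) in 22 genes. Both are 59 bases long, with 39 identical positions (66.1%), and each read the same in all transcripts that carry it. Capitals are not used in these runs, since the whole exon is the shared part.
alpha constant exon 1: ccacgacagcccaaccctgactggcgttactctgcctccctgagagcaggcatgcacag
gamma constant exon 1: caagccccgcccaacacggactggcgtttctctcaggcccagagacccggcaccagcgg
The second constant exons are also of equal length, 89 bases, with 29 identical positions (32.6%). A further constant exon follows, of 2718 bases in alpha and 2033 in gamma. A read that falls wholly in these exons cannot be given to any 1 gene of its cluster.

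How such reads were counted is not stated, but the rows show that they were not added to every gene. Of the 15 alpha rows 9 had 0 counts in all 5 libraries (PCDHA1, PCDHA2, PCDHA3, PCDHA5, PCDHA6, PCDHA7, PCDHA11, PCDHA12 and PCDHAC1), while PCDHA10 had 85 counts in sum. Among 22 gamma rows PCDHGA5 had 0 counts in all libraries, beside 801 for PCDHGC3. The row of an alpha or gamma gene therefore holds no share of constant-exon reads given to all genes alike, and levels per length were computed over exon bases that no other counted gene shares. Variable exons of neighbouring genes can be alike, which makes counts uncertain for reads that fit several copies. The exons of PCDHA10, PCDHB2 and PCDHB15 also overlap exons of a gene on the opposite strand, over 447, 620 and 32 bases, and without a stated strand setting reads of such partners cannot be told apart.

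The promoters carry a shared run of letters, shown because each gene is read from a promoter of its own. RefSeq promoters (GRCh38.p14, 250 bases before to 50 after the start) were found for 47 of the 53 genes. The letters CGCTG, searched on the strand of the gene in the 100 bases before the start, were present in 38 of 52 promoters of these genes (73.1%) and in 12.4% of all 35116 promoters. On either strand of the whole window the shares were 88.5% and 48.0%. In the windows below, all on the plus strand, CGCTG is in capitals with 15 bases before and 15 after it. PCDHA10, PCDHB2, PCDHB15, PCDHGA11, PCDHGC3 and PCDHGC4 are members, and PCDHA1, PCDHB3 and PCDHGA5 had 0 counts in every library.
PCDHA1, chr5:140786087-140786121: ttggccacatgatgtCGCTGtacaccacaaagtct
PCDHA10, chr5:140855842-140855876: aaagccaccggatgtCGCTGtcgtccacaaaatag
PCDHB2, chr5:141094545-141094579: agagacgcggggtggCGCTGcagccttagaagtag
PCDHB3, chr5:141100394-141100428: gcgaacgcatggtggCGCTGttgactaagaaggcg
PCDHB15, chr5:141245315-141245349: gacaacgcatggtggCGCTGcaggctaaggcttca
PCDHGA5, chr5:141364108-141364142: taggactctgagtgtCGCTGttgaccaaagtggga
PCDHGA11, chr5:141420973-141421007: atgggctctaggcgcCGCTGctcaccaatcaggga
PCDHGC3, chr5:141475881-141475915: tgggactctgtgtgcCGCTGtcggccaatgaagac
PCDHGC4, chr5:141484953-141484987: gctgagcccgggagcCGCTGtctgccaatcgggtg

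At least 80% of windows had the same base at 16 of 30 neighbouring positions in alpha (7 windows), 16 of 30 in beta (10 windows) and 8 of 30 in gamma (19 windows). The distance from the first base of CGCTG to the start was 26 to 95 bases, with a median of 55. A window was taken from the first promoter of each gene, and only where CGCTG and the 15 bases after it lay before the start. Genes with CGCTG closer to the start are therefore counted as without a window, so this rule is stricter than that of the 73.1%. By it a CGCTG window was found for 13 of 15 members with a promoter in the table, for 17 of 21 genes with 1 to 19 counts and for 6 of 11 genes at 0. Silent and expressed genes thus both carried it, and a match is a description of letters, not a binding site.

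Levels are given as CPM, counts divided by a library total that was scaled by a TMM factor and brought to a common size. Total counts were 35106664 to 57212071 in the controls and 41739602 to 48015766 in the treated libraries. Even numbers made up 71.3 to 75.9% of counts from 1 to 10 in each library, and 92.3% of the 104 such values of clustered protocadherin rows. A count of 2 may therefore stand for a single fragment counted at both ends, which was not tested, and intervals from counts may then be too narrow. They cover counting error only. The 53 rows together held 371 to 639 counts per library, of which gamma rows made 82.1%, beta rows 14.1% and alpha rows 3.8% over all libraries. If each count is a separate fragment, a row at 0 counts allows a level of up to 3 counts, which is 0.0533 to 0.0867 CPM in these libraries. If a fragment was counted at both ends, that limit is too low.

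**Figure D1:**
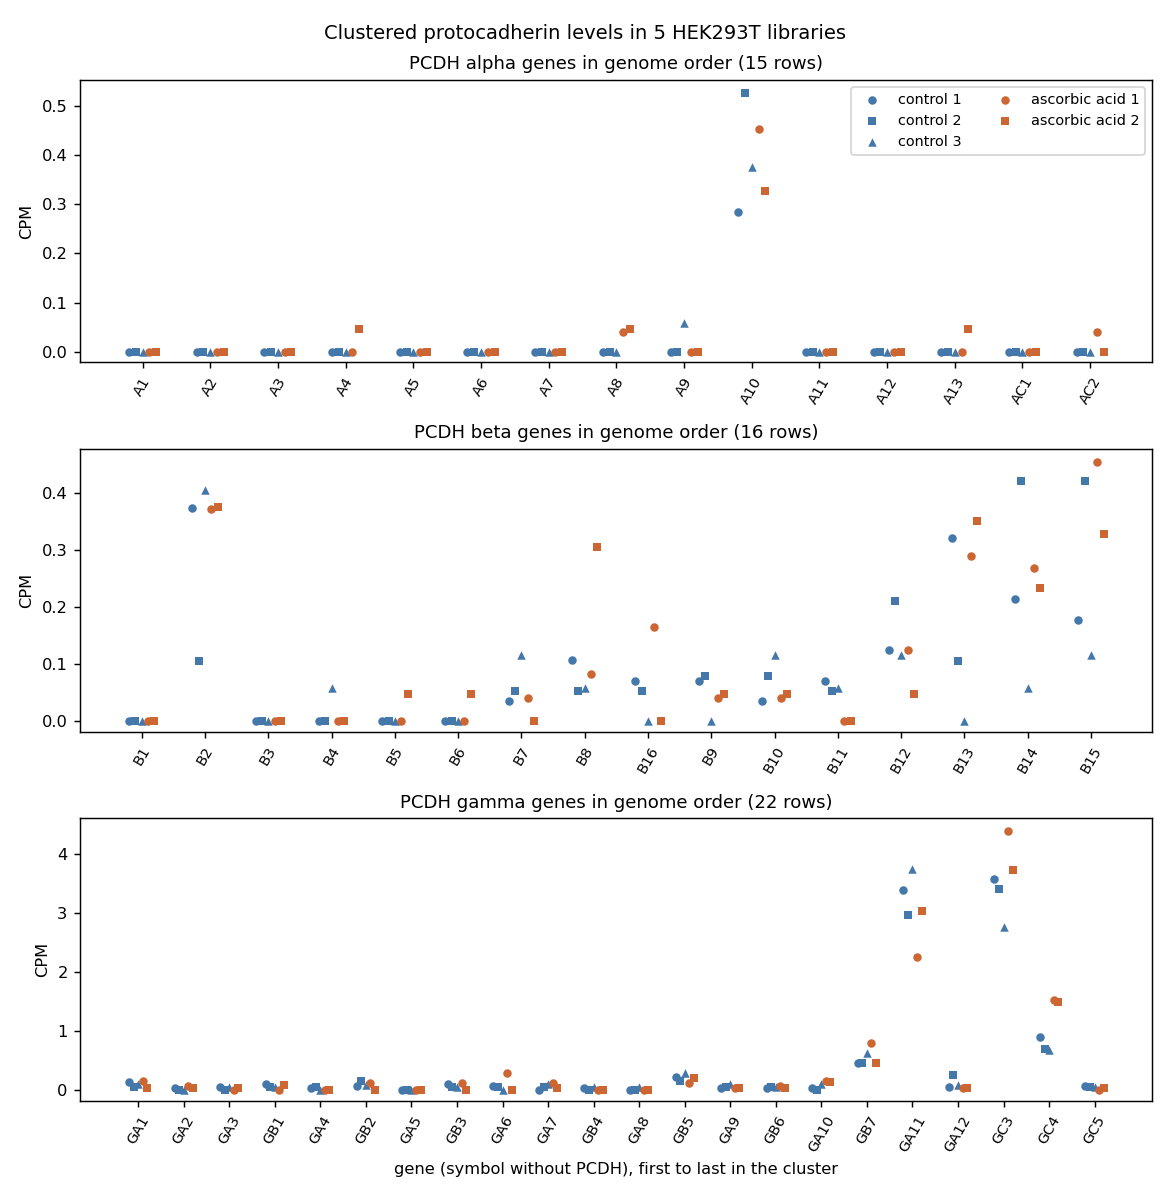
Levels of all 53 clustered protocadherin rows, in CPM (y axis, a different scale in each panel), with genes in genome order from first to last (x axis). Each point is 1 library, blue for control and orange for ascorbic acid. PCDHA10 is the alpha gene above 0.1 CPM, and the 3 gamma genes above 0.5 CPM in every library (PCDHGA11, PCDHGC3 and PCDHGC4) lie near the end of their cluster.

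In the alpha cluster most counts were in the row of PCDHA10, a variable adhesion gene (ENSG00000250120, chromosome 5, 140855883 to 141012344). Reads wholly within constant exons cannot be given to 1 gene, so the rows do not show the source of all alpha RNA. PCDHA10 also had the most exon bases of the alpha rows that no other counted gene shares (12300). Control replicates 1 to 3 held 16, 20 and 13 of its counts, and treated replicates 1 and 2 held 22 and 14. Its level was 0.284, 0.526 and 0.375 CPM (controls) against 0.454 and 0.327 CPM (treated), so the groups overlapped. The other 14 alpha rows summed to at most 4 counts each, and the C-type genes PCDHAC1 and PCDHAC2 had 0 counts in all libraries and 2 counts in treated replicate 1 alone.

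The beta genes encode adhesion proteins without the shared cytoplasmic end. Of 16 beta rows 6 reached the minimum, 8 had 2 to 14 counts in sum and 2 (PCDHB1 and PCDHB3) had 0. PCDHB2 had 0.373, 0.105 and 0.404 CPM (controls) against 0.371 and 0.374 CPM (treated). PCDHB15 had 0.178, 0.421 and 0.116 CPM against 0.454 and 0.327 CPM. PCDHB14 had 0.213, 0.421 and 0.0578 CPM against 0.268 and 0.234 CPM. In these genes a control library was lowest, and the groups overlapped. PCDHB13 was at 0.320, 0.105 and 0 CPM in the controls, the last a count of 0, and at 0.289 and 0.351 CPM in the treated libraries. PCDHB8 had 6, 2 and 2 counts against 4 and 13, and PCDHB12 had 7, 8 and 4 against 6 and 2. The last 4 beta genes in genome order (PCDHB12 to PCDHB15) held 54.9% of beta counts, a grouping chosen after the values were seen.

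The gamma cluster gave most of the signal, and mostly from its far end. The last 6 of 22 gamma genes in genome order held 1870 of 2090 gamma counts (89.5%), a grouping likewise chosen after the values were seen. PCDHGC3, a C-type gene (ENSG00000240184, chromosome 5, 141475947 to 141512979), was the highest, with 202, 130 and 96 control counts against 213 and 160 after treatment. Its level was 3.59, 3.42 and 2.77 CPM (controls) against 4.39 and 3.74 CPM (treated). Both treated libraries lay above the highest control.

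PCDHGA11, an A-type variable gene (ENSG00000253873, chromosome 5, 141421047 to 141512979), was close to PCDHGC3 in level. Its counts were 191, 113 and 130 (controls) against 110 and 130 (treated). That is 3.39, 2.97 and 3.75 CPM against 2.27 and 3.04 CPM, with treated replicate 2 inside the control range. PCDHGC4, the next C-type gene (ENSG00000242419, chromosome 5, 141484997 to 141512979), had 51, 27 and 24 counts against 74 and 64. Its level was 0.906, 0.711 and 0.693 CPM (controls) against 1.53 and 1.496 CPM (treated), with no overlap. PCDHGC5, the last gene of the cluster and also C-type, had 4, 2 and 2 counts against 0 and 2, below the minimum.

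PCDHGB7, a B-type variable gene (ENSG00000254122), had 0.462, 0.474 and 0.635 CPM (controls) against 0.804 and 0.468 CPM (treated). The 2 treated libraries thus lay on both sides of the highest control. The other 5 gamma members had at most 14 counts in any library. PCDHGB5 was the highest of these, with 13, 6 and 10 control counts against 6 and 9. PCDHGA6 had 4, 2 and 0 control counts, then 14 in treated replicate 1 and 0 in treated replicate 2. PCDHGA12 had 10 counts in control replicate 2 and 2 or 3 elsewhere, and PCDHGA10 had 2, 0 and 4 counts against 8 and 6. PCDHGA1 had 8, 2 and 4 counts against 8 and 2.

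Per length, over exon bases that no other counted gene shares, PCDHGC3 had a mean level of 1.10 CPM per kb over the 5 libraries, PCDHGA11 0.849, PCDHGC4 0.382 and PCDHGB7 0.204. Over the libraries PCDHGC3 ran from 0.853 to 1.35 and PCDHGA11 from 0.624 to 1.03, so their order is within the spread, whereas PCDHGC4 (0.248 to 0.546) lay below both. The range of PCDHGC4 overlapped that of PCDHGB7 (0.166 to 0.289), but within each library PCDHGC4 was the higher. The highest beta genes were PCDHB2 (0.0789 CPM per kb), PCDHB15 (0.0744) and PCDHB14 (0.0495). PCDHA10 had 0.0320 CPM per kb over 12300 bases that no other counted gene shares, most of them noncoding. Some of these bases belong also to an annotated gene of the cluster that has no row in the count table. Over its 2532 unshared coding bases PCDHA10 had 0.155 CPM per kb. On the coding scale PCDHA10 was thus above PCDHB2 (0.136) and on the exon scale below it.

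Within the gamma cluster the make-up of the counts was compared next, as a description with exact binomial (Clopper-Pearson) 95% intervals. PCDHGC4 made 9.6% (7.2 to 12.4), 8.2% (5.5 to 11.8) and 7.5% (4.9 to 11.0) of gamma counts in control replicates 1 to 3. In treated replicates 1 and 2 it made 14.7% (11.8 to 18.1) and 15.6% (12.3 to 19.5). Every treated library lay above every control in this share, although both treated intervals overlapped that of control replicate 1. PCDHGA11 made 35.8% (31.8 to 40.1), 34.5% (29.3 to 39.9) and 40.9% (35.4 to 46.5) in the controls, and 21.9% (18.4 to 25.8) and 31.8% (27.3 to 36.5) in the treated libraries. Both treated shares of PCDHGA11 were thus below the lowest control share, although the interval of treated replicate 2 overlapped those of the controls. PCDHGC3 made 30.2 to 39.6% in the controls and 39.1 to 42.4% in the treated libraries, and these ranges overlapped.

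**Figure D2:**
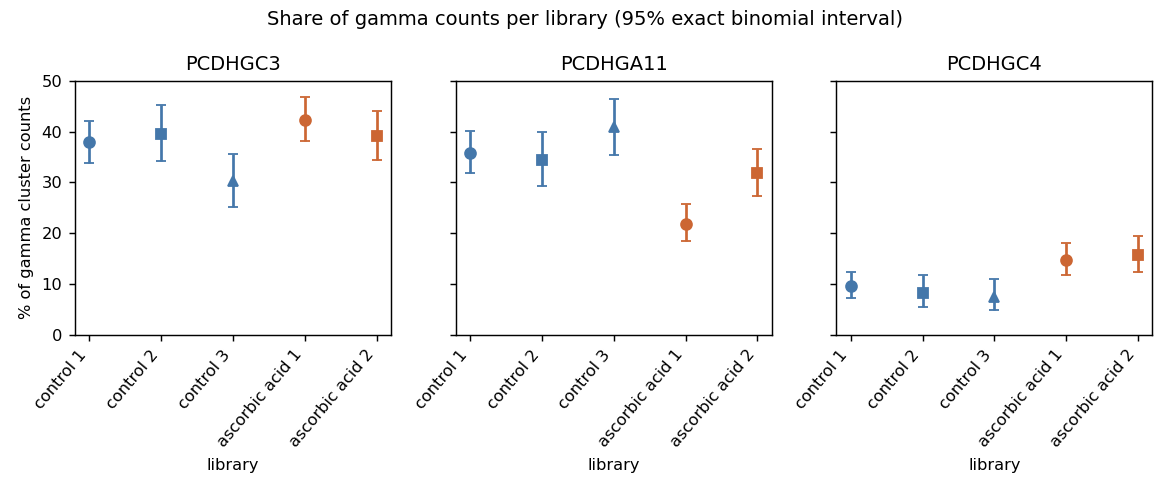
Share of gamma cluster counts (y axis, %) of PCDHGC3, PCDHGA11 and PCDHGC4 in each library (x axis), blue for control and orange for ascorbic acid. Bars are 95% exact binomial intervals, which cover counting error only. PCDHGC4 is at 7.5 to 9.6% in the controls and at 14.7 and 15.6% in the treated libraries.

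The counts of PCDHGC4 for each count of PCDHGA11 were 0.267, 0.239 and 0.185 (controls) against 0.673 and 0.492 (treated). For each count of PCDHGC3 they were 0.252, 0.208 and 0.250 against 0.347 and 0.400. Both ratios were thus higher in each treated library than in any control. Ratios within a library do not depend on its total, and these genes share the constant exons. The ratios and the shares above use the same counts as the test below, where PCDHGC4 was called higher and PCDHGA11 had a negative value. They therefore add no separate support. Summed over all 22 gamma rows the level was 9.10 ± 0.425 CPM (SD, n = 3) in the controls and 9.96 ± 0.555 CPM (SD, n = 2) in the treated libraries. The sums of the beta rows were 1.44 ± 0.299 CPM (SD, n = 3) and 1.85 ± 0.0368 CPM (SD, n = 2), and those of the alpha rows 0.415 ± 0.122 CPM (SD, n = 3) and 0.502 ± 0.0483 CPM (SD, n = 2). The groups overlapped in the alpha sums and did not in the beta (1.10 to 1.63 against 1.82 and 1.88 CPM) or gamma sums (8.63 to 9.47 against 9.56 and 10.4 CPM). No test was made of these sums, and groups did not overlap in 43.1% of all genes tested. The gamma sums include PCDHGC3 and PCDHGC4, each above every control in both treated libraries, while PCDHGA11 had a lower treated mean. The beta sums include PCDHB13, which had a count of 0 in control replicate 3. The sums therefore do not show a rise shared by the genes of a cluster.

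Whether ascorbic acid changed these genes was asked with edgeR's quasi-likelihood test, fitted on all genes with 2 treated and 3 control libraries. Adjusted p is the Benjamini-Hochberg value over 15271 genes tested, and a gene was called at an adjusted p under 0.05. The filter on low counts left 9 of the 16 members (PCDHA10, PCDHB2, PCDHB13, PCDHB14, PCDHB15, PCDHGA11, PCDHGB7, PCDHGC3 and PCDHGC4). It removed 7, which had mean levels of 0.0825 to 0.202 CPM. Of the 9 tested, 1 rose, 0 fell and 8 did not pass. Over all genes tested 8.53% were called higher and 5.76% lower, so that 1 of 9 (11.1%) is near the background of 14.3% in either direction. Among 4105 tested genes within the members' range of mean level (0.213 to 3.58 CPM), 8.89% were called higher and 0.39% lower, 9.28% in all.

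PCDHGC4 was the gene that rose. The control mean was 0.770 ± 0.118 CPM (SD, n = 3) and the treated mean 1.51 ± 0.0205 CPM (SD, n = 2), a 1.93-fold increase (log2 fold change 0.95 ± 0.27 SE, 95% interval 0.40 to 1.496, edgeR adjusted p = 0.0166). It was higher in 2 of 2 treated libraries than in every control. The other C-type gene tested, PCDHGC3, did not pass (0.31 ± 0.16, interval -0.01 to 0.63, edgeR adjusted p = 0.192), and the difference between the 2 genes was not tested. The PCDHGC4 call ended when either treated library was left out. It also ended in a test against a fold of 1.2 (adjusted p = 0.124) and with cyclic loess scaling of log CPM (0.73, adjusted p = 0.0770). Without treated replicate 1 the log2 fold change was 0.93 (adjusted p = 0.0911) and without treated replicate 2 it was 0.96 (adjusted p = 0.0730).

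PCDHGA11 was the tested member with a negative fitted log2 fold change. The means were 3.37 ± 0.391 CPM (controls, SD, n = 3) and 2.65 ± 0.546 CPM (treated, SD, n = 2), and it did not pass (log2 fold change -0.35 ± 0.17, interval -0.71 to 0.0039, edgeR adjusted p = 0.184). Without treated replicate 1 the value was -0.15, and without treated replicate 2 it was -0.58, so the size depended on which treated library was kept. PCDHGB7 had 0.31 ± 0.38 (adjusted p = 0.644). In gamma, then, 1 of 4 tested genes rose, 0 fell and 3 did not pass.

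**Figure D3:**
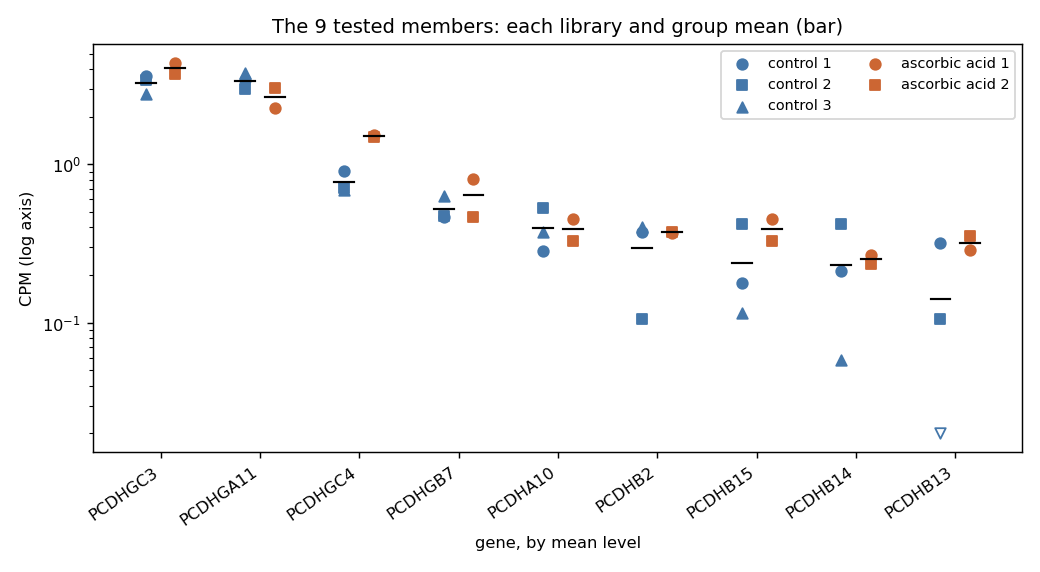
Level of each of the 9 tested members in each library, in CPM on a log axis, with genes ordered by mean level (x axis). Filled points are libraries (blue control, orange ascorbic acid), black bars are group means, and the open triangle marks PCDHB13 in control replicate 3, a count of 0 drawn at the foot of the axis. The groups do not overlap for PCDHGC3 and PCDHGC4 and overlap for the other 7.

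The PCDHA10 means were 0.395 CPM (controls) and 0.3904 CPM (treated), with a fitted log2 fold change of 0.03 ± 0.44 (interval -0.88 to 0.93, edgeR adjusted p = 0.979). Its counts of 13 to 22 leave room for a change of nearly 1 on the log2 scale in either direction. All 4 tested beta genes had positive values and none passed. They were 0.94 ± 0.63 for PCDHB13, 0.74 ± 0.51 for PCDHB15, 0.31 ± 0.49 for PCDHB2 and 0.11 ± 0.59 for PCDHB14, with edgeR adjusted p from 0.346 to 0.925. The low-count filter asks for about 10 counts, scaled for depth, in 2 libraries, which is the size of the treated group. PCDHB13, PCDHB14 and PCDHB15 passed it only with the help of their treated libraries, so their signs cannot be read apart from the filter. The 0 alpha and 0 beta genes called by edgeR were also 0 at an unadjusted p under 0.05, and 0 in limma-voom, while DESeq2 gave none of these genes an adjusted p. A change as large as that of PCDHGC4 lies inside the intervals of all 4 beta genes and was not detectable at this depth. The PCDHB13 value rests on control libraries that ran from 0 to 18 counts.

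The median log2 fold change of the 9 tested members was 0.31, with 8 positive and 1 negative. Over all genes tested it was 0.00 with 50.8% positive, and over tested genes within the members' range of level it was 0.18 with 67.1% positive. Tested genes at this level thus leaned to higher values after treatment, and the members' values are to be read against that. The low-count filter can keep a gene near its edge through the 2 treated libraries alone, or through 2 control libraries alone. Whether any of the lean, or of the members' signs, comes from the filter was not tested. The groups did not overlap in 2 of the 9 members (22.2%), against 43.1% of all genes tested and 35.8% of those in the members' range. In both members the treated libraries were above, as in 22.6% of all genes tested and 29.4% of those in the range. The members are lowly expressed for this cell line. Their mean levels exceeded those of only 0.7% (PCDHB13) to 27.6% (PCDHGC3) of genes tested, whose median was 21.0 CPM.

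**Figure D4:**
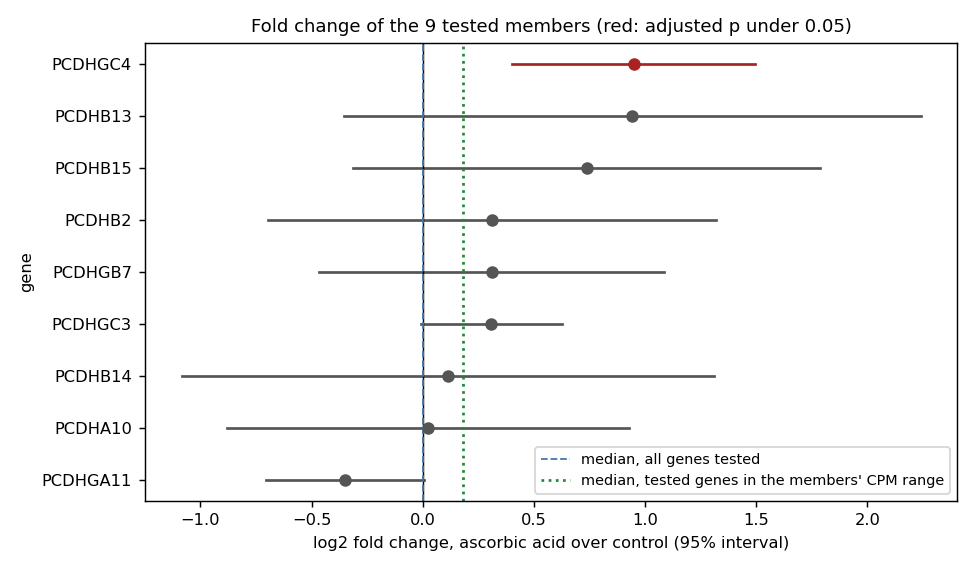
Log2 fold change of the 9 tested members, ascorbic acid over control (x axis), with 95% intervals, 1 gene per row. The dashed line is the median of all genes tested (0.00) and the dotted line that of tested genes within the members' range of CPM (0.18). PCDHGC4 (red) is the member called, and the intervals of the other 8 include 0.

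Genes that shape promoter choice in these clusters were read from a list of 29 architectural and silencing factors, all tested, of which 3 rose, 2 fell and 24 did not pass (median log2 fold change -0.04), beside 8.53% of all genes tested called higher and 5.76% lower. The share called is near that of all genes tested (14.3%). CTCF, which binds the promoters and enhancers of the clusters, had -0.06 ± 0.05 (edgeR adjusted p = 0.402) and did not pass. The histone H3K9 methyltransferase gene EHMT1 rose by 0.37 ± 0.05, and the DNA methyltransferase genes DNMT3A and DNMT3B rose by 0.31 ± 0.07 and 0.19 ± 0.06. LRIF1, a partner of the chromatin silencer SMCHD1, fell by 0.38 on the log2 scale and the thymine DNA glycosylase gene TDG by 0.16. The DNMT3B call ended without treated replicate 1 (0.15) or control replicates 1 (0.21) or 3 (0.17), and the TDG call without treated replicate 1 (-0.12) or control replicates 1 (-0.13) or 2 (-0.16). The TDG call also ended with cyclic loess (adjusted p = 0.138), library totals (0.108) and the filter of 5 CPM (0.0608). In the test against a fold of 1.2 none of the list genes named here and in the next paragraphs was called except DCHS1 and ARAP3.

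Of 25 genes for partners and signalling (the kinases PTK2 and FYN, the WAVE complex, the proteases that cleave protocadherins) 0 rose, 3 fell and 22 did not pass (median -0.09). The share called is near the 14.3% of all genes tested. CYFIP2, a WAVE complex subunit, fell by 0.19 on the log2 scale, PDCD10 by 0.24 and the protein kinase C gene PRKCA by 0.18. Each lost its call in leave-outs. CYFIP2 lost it without treated replicate 2 (-0.12) or control replicate 1 (-0.18), PDCD10 without treated replicate 1 (-0.09) or control replicate 1 (-0.22), and PRKCA without treated replicate 2 (-0.16) or control replicates 1 (-0.14) or 2 (-0.20). Other scalings and filters also ended these calls. PRKCA was lost with cyclic loess (adjusted p = 0.0809), library totals (0.112), upper-quartile factors (0.0570) and the filter of 5 CPM (0.0661), PDCD10 with library totals (0.0687) and CYFIP2 with cyclic loess (0.0689).

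Of 18 protocadherins outside the clusters and giant cadherins 16 were tested, of which 5 rose, 1 fell and 10 did not pass (median 0.10), beside 8.53% of all genes tested called higher and 5.76% lower. The share called was above the 14.3% of all genes tested, a difference that was not tested in a list chosen with earlier results known. DCHS1, a ligand in FAT cadherin signalling, rose by 1.04 ± 0.19 and PCDH18 by 0.48 ± 0.10. DCHS2 rose by 1.34 ± 0.44 and FAT4, the receptor for DCHS1, by 0.26 ± 0.08, while FAT3 fell by 0.31. The DCHS2 call ended without treated replicates 1 (1.30) or 2 (1.36) or control replicate 1 (1.04). The FAT4 call ended without treated replicate 1 (0.20) or control replicate 1 (0.19), and the FAT3 call without treated replicate 1 (-0.29). Cyclic loess ended the DCHS2 (adjusted p = 0.173) and FAT4 (0.0767) calls, and DESeq2 that of FAT4 (0.0627).

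Among genes on chromosome 5 within 500 kb of the members, and between the clusters, 24 of 37 were tested, of which 3 rose, 5 fell and 16 did not pass (median 0.02), where all genes tested had 8.53% and 5.76%. The share called was above that of all genes tested (14.3%), a difference that was not tested. PCDH1 and PCDH12 are in this list and in the one before it, and neither passed. TAF7, a subunit of the general transcription factor TFIID that lies between the beta and gamma clusters, fell by 0.25 on the log2 scale, with means of 113 ± 5.27 CPM (controls, SD, n = 3) and 94.9 ± 0.901 CPM (treated, SD, n = 2) (edgeR adjusted p = 0.000971). ARAP3, a regulator of small GTPases beyond the gamma end, rose by 1.29 ± 0.17. FCHSD1 rose by 0.53 ± 0.14, and ZMAT2 and IK, before the alpha cluster, each fell by 0.18. The FCHSD1 call ended without treated replicate 1 (0.49) or control replicate 1 (0.46), the IK call without treated replicate 1 (-0.16) or control replicate 1 (-0.15), and the ZMAT2 call without control replicates 1 (-0.17) or 3 (-0.15). Cyclic loess ended the calls of FCHSD1 (adjusted p = 0.0633), IK (0.0865) and ZMAT2 (0.0731), and library totals those of IK (0.0605) and ZMAT2 (0.0649). TAF7, IK, FCHSD1 and ZMAT2 each overlap a neighbouring gene, so reads in the overlap are uncertain. The 4 rows of clustered protocadherin pseudogenes (PCDHB17P, PCDHB18P, PCDHB19P and PCDHGB8P) were too low to test.

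Markers of the cell types that express or lack these genes were summed in each library. The 11 neuronal markers summed to 43.2 to 45.6 CPM in the controls and 53.8 to 57.8 CPM in the treated libraries, and of 6 tested 2 rose (MAP2 and NEFM). Without NEFM, the most abundant, they summed to 26.2 to 27.96 CPM against 27.5 and 26.1 CPM and overlapped, and SYP (-0.22), NEFL (-0.07) and RBFOX3 (-0.26) had negative log2 fold changes that did not pass. The 7 glial markers summed to 6.70 to 7.74 against 9.03 and 10.1 CPM, the 8 fibroblast markers to 10.95 to 11.2 against 20.1 and 21.4 CPM, and the 5 epithelial markers to 33.1 to 36.7 against 47.2 and 51.0 CPM. The 9 kidney tubule markers, with UMOD and SLC12A3 at 0, summed to 30.9 to 33.2 against 23.9 and 24.2 CPM. Without LRP2, which fell by 0.45 on the log2 scale, they summed to 1.63 to 2.05 against 1.94 and 2.34 CPM and overlapped. The 4 haematopoietic markers, with CD3E at 0, summed to 1.16 to 1.59 against 1.44 and 1.59 CPM. Without OLIG2 the glial sums overlapped (0.888 to 1.36 against 1.196 and 1.66 CPM). Without COL1A1 the fibroblast sums (4.47 to 4.74 against 10.3 and 10.7 CPM), and without KRT18 the epithelial sums (6.56 to 7.35 against 15.9 CPM in both), still did not. These genes were left out after their values were seen, and groups did not overlap in 43.1% of all genes tested. The part of these markers in the PCDHGC4 value was not tested. In bulk RNA, more cells with a transcript and more transcript per cell cannot be told apart.

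**Figure D5:**
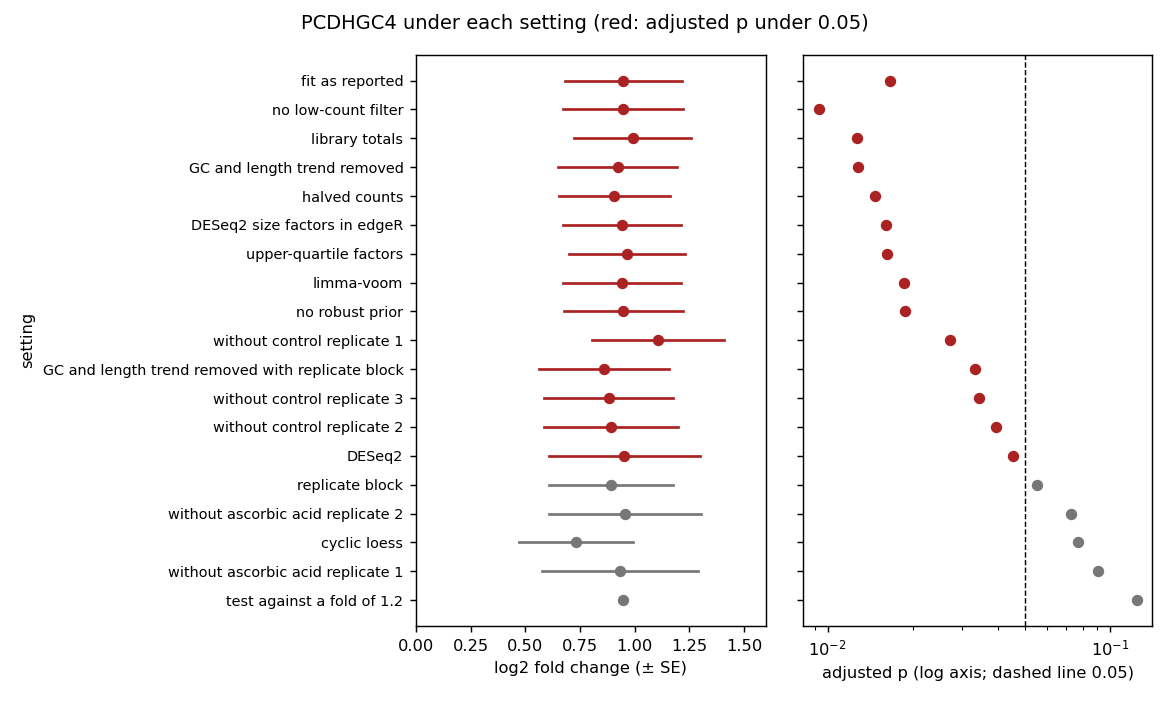
PCDHGC4 in the fit as reported and under 18 alternatives (1 per row): log2 fold change ± SE where the method gives one (left, x axis) and adjusted p on a log axis (right), with the threshold of 0.05 dashed. The fold change ran from 0.73 to 1.11 over the alternatives, with 13 calls kept (red) and 5 ended (grey).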

How the data were processed

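The authors deposited whole-number counts of reads per gene symbol for 5 libraries. The tools named per the submitters' processing notes are STAR, featureCounts, DESeq2 and Trimmomatic 0.39, and the build is hg38 (GRCh38). Annotation, strand setting and the handling of reads in shared exons: not given in the sources used here. Columns were assigned by name ("con" as control, "vc" as vitamin C).

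The genes and lists were chosen with earlier results of these data known. Genes were filtered with filterByExpr by group, scaled with TMM and tested with edgeR 4.0.16 in R 4.3.3 (robust glmQLFit, glmQLFTest, two-sided). Intervals are at 95%. Standard errors came from the fold change and F statistic. The script was tested on simulated counts. Exon sharing came from GENCODE 29, promoters from RefSeq (GRCh38.p14).

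By rule, full values are given for called members, C-type genes, the 3 highest per kb of unshared exon in each cluster and those at the minimum of 20, and up to 5 called genes of each list are named by smallest p. Other members and CTCF were added after their values were seen. Alternatives were DESeq2 1.42.0, limma-voom (limma 3.58.1), other scalings and filters, halved counts, cyclic loess, GC and length trends removed (mgcv 1.9.3, 96.4% of tested genes covered), the replicate block, and each library left out. No protein sequences were used here.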

Additional observations from a re-analysis of the deposited data

How the results depend on the processing

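The count of gamma members called higher was 1 as reported. It was 0 with cyclic loess, with the replicate block and against a fold of 1.2, and 0 to 1 in leave-outs, with 0 without either treated library. Gamma members called lower were 0 under 18 alternatives, and alpha and beta members called in either direction were 0 under 16. DESeq2 gave no adjusted p for the alpha and beta members and halved counts left none of them to test, so neither gives a count there. The filter of 5 CPM in 2 libraries left no member (the highest library value was 4.39 CPM), so it gave none of these values, and halving the counts left 4 of the 9 (PCDHGA11, PCDHGB7, PCDHGC3 and PCDHGC4). PCDHGC4 kept its direction throughout (0.73 to 1.11, adjusted p 0.00928 to 0.124). PCDHGC3, PCDHGA11, PCDHB13 and PCDHB15 kept their sign wherever fitted, and their side of the threshold wherever an adjusted p was given. Signs of members that were not called turned for PCDHA10 (DESeq2, log2 fold change -0.0035, and cyclic loess, -0.27), PCDHB14 (replicate block, -0.26, and GC and length trend removed with replicate block, -0.24) and PCDHGB7 (cyclic loess, -0.0217). In leave-outs PCDHA10 ran from -0.24 to 0.29, PCDHB14 from -0.27 to 0.73, PCDHB2 from -0.05 to 0.58 and PCDHGB7 from -0.15 to 0.63.

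The 1303 higher genes of the whole table became 275 against a fold of 1.2 and 790 to 1279 in leave-outs (790 and 837 without treated replicates 1 and 2, 845 without control replicate 1). The 879 lower genes became 1439 with GC and length trends removed and 1573 with the replicate block added to that. They became 519 with cyclic loess, 542 with the 5 CPM filter, 389 with library totals, 11 against a fold of 1.2 and 335 to 768 in leave-outs (335 and 535 without control replicates 1 and 2). The cause of these shifts was not tested. The labels do not say that equal replicate numbers mark a shared culture, so the block tests no known pairing. Deviations of same-numbered libraries from their group means correlated by 0.025 and 0.011. Since the deviations of 2 treated libraries mirror each other, these values are not separate checks and cannot show or exclude pairing. With the block PCDHGC4 had 0.89 (edgeR adjusted p = 0.0551), and the calls of DNMT3B (0.0755), DCHS2 (0.0680) and FAT4 (0.0604) also ended. A lone treated library takes its spread from the controls. Depth limits most members: the standard error of a log2 fold change was 0.44 to 0.63 for PCDHA10 and the 4 beta genes.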
